A study of Mus musculus with 4 samples.

Results

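The genes described here are 10 stress effectors and secreted mitochondrial stress signals (mitokines) that lie downstream of the transcription factor Atf4: Asns, Cth, Pck2, Sesn2, Ddit4, Eif4ebp1, Gdf15, Fgf21, Stc2 and Vldlr. They were taken by gene symbol from the 49997 genes counted in each library, and all 10 were found. Counts came from 4 poly(A) RNA libraries of cultured mouse tissue of the aorta, gonads and mesonephros (AGM), where the first haematopoietic stem cells of the embryo form. The explants were C57BL/6J tissue, kept for 48 hours on membrane filters in MyeloCult medium with hydrocortisone. In 2 libraries the explants had no further treatment, and in the other 2 they had 5 µM CCCP for 48 hours. CCCP is a protonophore that collapses the proton gradient across the inner mitochondrial membrane. The growth protocol gives E10.5 and E11.5 embryos, while the series design gives E10.5 alone, and neither says which library came from which day.

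Loss of mitochondrial function, shortage of amino acids and misfolded protein in the endoplasmic reticulum all activate kinases that phosphorylate the translation factor eIF2 alpha. Bulk translation then falls while Atf4 protein is made, and Atf4 switches on genes for amino acid supply, for restraint of the growth kinase complex mTORC1 and for secreted signals. This programme is called the integrated stress response. In muscle and liver, its secreted products Gdf15 and Fgf21 are widely used as markers of mitochondrial dysfunction.

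Atf4 binds its target genes at a composite site, the C/EBP-ATF response element, whose core was searched as TGATGNAA on both strands of the 250 bases before each annotated transcription start. RefSeq windows (assembly GRCm38.p6, the same build as the mm10 of the files) were at hand for 8 of the 10 genes, Cth and Eif4ebp1 being the exceptions. The core was present in 4 of their 10 windows, belonging to Asns, Pck2, Fgf21 and Vldlr, against 3.45% of all 32851 windows of that length. These genes were chosen as known Atf4 targets, so that share is a description. The 3 windows shown carry the core and lie upstream of the gene, although that of Pck2 ends just inside it. They belong to genes of different roles and levels: 2 enzymes and 1 mitokine of low abundance. They are chr6:7693210-7693459 (minus strand) for Asns, chr14:55540016-55540265 (plus strand) for Pck2 and chr7:45615491-45615740 (minus strand) for Fgf21, written 5′ to 3′ on the strand of the gene with the core in capitals.
Asns: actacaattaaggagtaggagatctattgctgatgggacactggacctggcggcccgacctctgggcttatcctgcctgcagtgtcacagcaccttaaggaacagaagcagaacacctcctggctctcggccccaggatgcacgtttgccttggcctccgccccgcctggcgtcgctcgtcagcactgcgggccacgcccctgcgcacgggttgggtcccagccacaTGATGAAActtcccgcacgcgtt
Pck2: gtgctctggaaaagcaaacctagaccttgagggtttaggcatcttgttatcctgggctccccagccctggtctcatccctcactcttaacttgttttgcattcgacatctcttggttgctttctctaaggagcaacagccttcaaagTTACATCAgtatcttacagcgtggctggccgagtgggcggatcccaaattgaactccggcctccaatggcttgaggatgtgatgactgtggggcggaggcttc
Fgf21: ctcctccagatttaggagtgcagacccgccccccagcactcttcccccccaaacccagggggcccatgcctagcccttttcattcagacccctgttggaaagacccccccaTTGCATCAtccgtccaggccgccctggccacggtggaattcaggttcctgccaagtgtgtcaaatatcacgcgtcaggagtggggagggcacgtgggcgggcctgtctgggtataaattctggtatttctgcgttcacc
The core lay 23 to 16 bases before the start of Asns, 103 to 96 bases before that of Pck2 and 139 to 132 bases before that of Fgf21. In Asns it reads TGATGAAA along the gene, and in Pck2 and Fgf21 it lies on the opposite strand, as TTACATCA and TTGCATCA. In Vldlr the same TTGCATCA was found 200 to 193 bases before the second of 2 annotated starts, inside the longer transcript. Sesn2, Ddit4, Gdf15 and Stc2 had no match, which says only that these letters are not in the window. Binding of Atf4 was not measured.

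Total counts ran from 37360968 to 48827826 per library, replicate 1 being the deeper in both groups. The labels name the cells as embryonic HSCs (haematopoietic stem cells), but per the extraction protocol RNA was taken from explants. Haematopoietic markers summed to 86.4 to 121 CPM (counts scaled to library size, with TMM factors) over 8 genes. Erythroid markers summed to 112 to 216 CPM and macrophage markers to 109 to 166 CPM, over 6 genes each. Those of mesenchyme summed to 2474 to 3993 CPM over 6 genes. Sums over unlike genes do not give shares of cells, but markers of several tissues were present. The values below are therefore those of a mixed tissue. In such bulk RNA, fewer cells of a type and less RNA per cell cannot be told apart. Hepatic markers stood apart between the groups: all 11 were lower in both CCCP libraries, as were 24.8% of all genes. Sums were 1740.1 and 999 CPM untreated against 53.01 and 107 CPM in CCCP. Gene by gene the CCCP libraries were further apart than these sums show. The median log2 ratio of CCCP replicate 2 over CCCP replicate 1 was 4.17. Fga and Ahsg had 0 counts in CCCP replicate 1. The part of hepatic cells in the results below was not tested. No label says that replicates are separate litters or cultures, so p-values measure the spread between these libraries, which may be technical.

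The comparison asks how these transcripts differ between explants kept for 48 hours with 5 µM CCCP and untreated ones. The data hold no measure of membrane potential. The values of the 10 genes lay in both directions. The fitted ratio of CCCP to untreated was 1.28 for Asns, 1.33 for Pck2 and 1.10 for Cth, the enzymes of amino acid and carbon supply. Among the genes of growth control it was 1.24 for Sesn2, 1.35 for Eif4ebp1 and 0.840 for Ddit4. The secreted Gdf15, Fgf21 and Stc2 had 0.888, 0.967 and 0.988, and the receptor Vldlr had 0.754. Gdf15 and Fgf21 lay at 0.882 to 2.33 CPM in every library. None of the 10 passed edgeR's quasi-likelihood test at a Benjamini-Hochberg adjusted p under 0.05, where 0% of the 19837 genes tested passed. At an unadjusted p under 0.05, 0 of the 10 were higher (5.45% of all genes) and 1, Vldlr, was lower (9.16% of all genes). DESeq2 called 0 of the 10, where it called 0.297% of all genes higher and 2.70% lower. An exact permutation test on single genes is not given, as 2 libraries against 2 allow no two-sided p under 0.333. With the replicate number, which the labels do not explain, as a block, edgeR called 2 of the 10 higher, where it called 3.80% of all genes, and 1 lower, where it called 6.88%.

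All 10 genes passed the filter on low counts. The CCCP pair was above the untreated pair, with no overlap, for 1 of them, Pck2, against 24.0% of all genes, and below for 2, Ddit4 and Vldlr, against 24.8% of all genes. The other 7 overlapped between the groups. Their log2 fold changes ran from -0.41 (Vldlr) to 0.44 (Eif4ebp1), with 5 above 0 and 5 below. The median was 0.062, beside -0.0077 over all genes tested, and under total-count scaling 0.0092 beside -0.066. With the trend on exon length removed it was -0.058 beside 0.016.

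**Figure D1:**
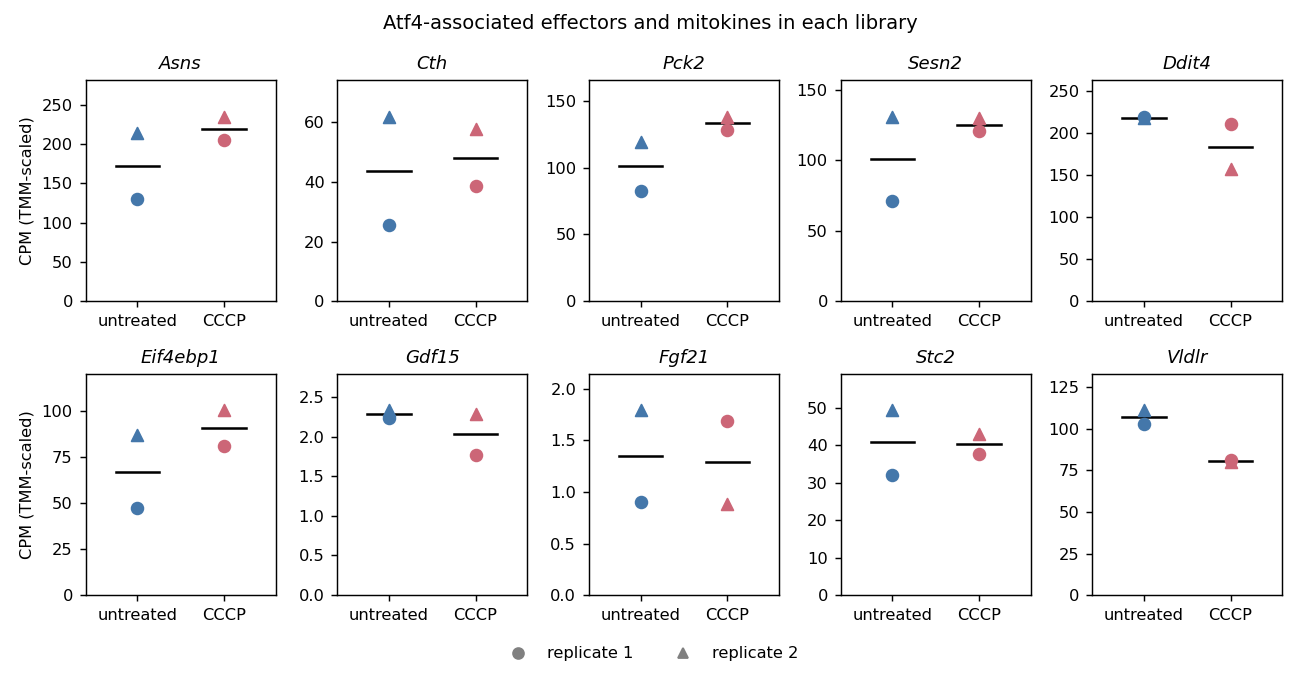
TMM-scaled CPM of each of the 10 genes (vertical axes from 0, a scale of its own per gene) in the 2 untreated and the 2 CCCP libraries, circles for replicate 1, triangles for replicate 2 and lines for group means. The groups are apart for Pck2, Ddit4 and Vldlr, and in 6 panels the lowest point is untreated replicate 1.

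Asparagine synthetase, Asns (chromosome 6, 7675165 to 7693209), makes asparagine from aspartate and glutamine and is a classic readout of amino acid shortage. Without treatment it stood at 129.8 and 214 CPM, and with CCCP at 205 and 235 CPM. Groups overlapped here, since untreated replicate 2 exceeded CCCP replicate 1. Group means were 172 ± 59.8 and 219.8 ± 21.3 CPM (SD, n = 2 in each), or 0.35 on the log2 scale (standard error 0.240, edgeR adjusted p 0.519).

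Pck2 (chromosome 14, 55540263 to 55550020) encodes the mitochondrial form of phosphoenolpyruvate carboxykinase, which turns oxaloacetate into phosphoenolpyruvate in the matrix. It had 82.3 and 119 CPM untreated and 128 and 138 CPM in CCCP, so that the CCCP libraries were the 2 highest. The untreated libraries were further apart than the nearest untreated and CCCP libraries. On the log2 scale the difference between groups was 0.41 (standard error 0.188, edgeR adjusted p 0.378), from means of 101 ± 25.8 and 133 ± 7.37 CPM (SD, n = 2).

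Cystathionine gamma-lyase, Cth (chromosome 3, 157894248 to 157925081), completes the route from methionine to cysteine, which feeds glutathione synthesis. Its untreated libraries had 25.6 and 61.8 CPM, the lowest and the highest of all 4 values. The CCCP libraries, at 38.5 and 57.8 CPM, lay between them. The log2 fold change of 0.14 (standard error 0.411) was therefore smaller than the spread within the untreated group (edgeR adjusted p 0.896).

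Sesn2, Ddit4 and Eif4ebp1 act on growth control. Sestrin 2, from Sesn2 (chromosome 4, 132492804 to 132510456), senses leucine and restrains mTORC1 when amino acids are short. Its values were 71.0 and 131 CPM untreated and 121 and 129.9 CPM in CCCP. Untreated replicate 2 was the highest of the 4 and untreated replicate 1 the lowest by a wide margin. The log2 fold change was 0.31 (standard error 0.274, edgeR adjusted p 0.614), without untreated replicate 1 it was -0.055, and with the trend on GC content removed 0.14.

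Ddit4 (chromosome 10, 59949675 to 59951770), also known as Redd1, restrains mTORC1 through the TSC complex and responds to hypoxia and glucocorticoids as well as to Atf4. It was the 1 effector of this kind with the lower mean in CCCP. Untreated libraries agreed closely, at 219 and 218 CPM, and the CCCP libraries had 210.2 and 157 CPM. Both CCCP libraries were below both untreated ones, and most of the difference lay in CCCP replicate 2. The log2 fold change was -0.25 (standard error 0.164, edgeR adjusted p 0.504). Without CCCP replicate 2 it was -0.056, and with the trend on exon length removed -0.39.

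Eif4ebp1 (chromosome 8, 27260327 to 27275656) encodes a repressor that holds the cap-binding protein eIF4E until mTORC1 phosphorylates it. It had 47.2 and 87.0 CPM untreated, and 81.0 and 100.4 CPM in CCCP. Only untreated replicate 1 was far from the rest. Group means were 67.1 ± 28.2 and 90.7 ± 13.7 CPM (SD, n = 2), and the log2 fold change of 0.44 was the highest among the 10 (standard error 0.287, edgeR adjusted p 0.508). It was 0.067 without untreated replicate 1, and 0.26 with the trend on exon length removed.

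The mitokines were the least abundant of the 10 genes. Gdf15 (chromosome 8, 70629393 to 70632470), a TGF-beta family hormone that acts on appetite through a receptor in the hindbrain, had 112 and 87 counts untreated and 86 and 83 counts in CCCP. These were 2.24 and 2.33 CPM against 1.77 and 2.29 CPM. The groups overlapped, and neither CCCP library exceeded the higher untreated one. On the log2 scale the difference was -0.17 (standard error 0.330, edgeR adjusted p 0.836). With the trend on exon length removed it was -0.30, and with the trend on GC content removed -0.35.

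Fgf21 (chromosome 7, 45613890 to 45615490), a metabolic hormone made chiefly by liver in the adult, had 45 and 67 counts untreated and 82 and 32 counts in CCCP. Scaled, these were 0.899 and 1.79 CPM without treatment against 1.69 and 0.882 CPM with it. The highest and the lowest libraries of the 2 groups were nearly the same. Its log2 fold change was -0.049 (standard error 0.534, edgeR adjusted p 0.976), an error larger than the log2 fold changes of Asns and Pck2. The untreated and the CCCP pair each differed by almost 1 on that scale, in opposite directions (0.99 and -0.94 for replicate 2 over replicate 1). All 4 values lay above the CPM that 3 counts give, which was 0.06144 to 0.0803 before TMM scaling.

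Stanniocalcin 2, from Stc2 (chromosome 11, 31359441 to 31370061), is a secreted glycoprotein that inhibits the protease that frees IGF from its binding proteins. It stood at 32.2 and 49.3 CPM untreated and 37.6 and 42.9 CPM in CCCP, the CCCP values lying inside the untreated range. The log2 fold change was -0.017 (standard error 0.217, edgeR adjusted p 0.979). The groups overlapped for each of the 3 secreted proteins. The untreated pair of Gdf15 lay closer together (log2 ratio 0.056) than the group means did, and its CCCP pair further apart (0.37).

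Vldlr (chromosome 19, 27216480 to 27254231) encodes a lipoprotein receptor that also binds reelin, and Atf4 is known to raise it under stress in the endoplasmic reticulum. Here it was the member with the lowest fold change. It had 103 and 111 CPM untreated and 81.1 and 80.1 CPM in CCCP, and the groups were separated by more than the spread within either. The means were 107 ± 5.91 and 80.6 ± 0.683 CPM (SD, n = 2), or -0.41 as a log2 ratio (standard error 0.112, edgeR adjusted p 0.240). Leaving out any 1 library kept it between -0.46 and -0.33. Its exons sum to 8917 bases, the longest of the 10, and across all genes longer exons went with lower fold changes (Spearman's rho -0.35; genes are not independent replicates). With that trend removed, the value for Vldlr was -0.18, and with the trend on GC content removed -0.25. A predicted gene lies on the other strand within its span and shares no exon base with it.

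**Figure D2:**
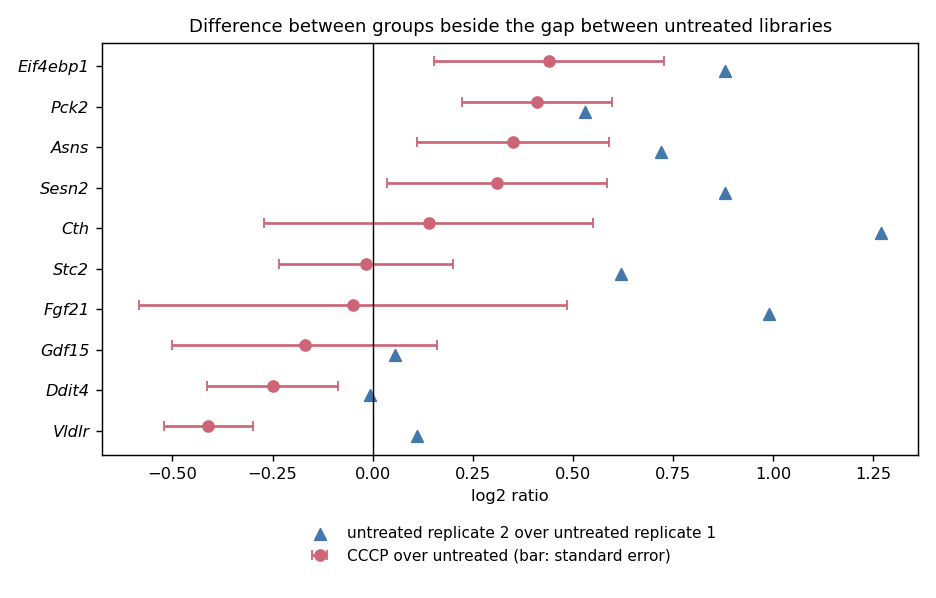
Horizontal axis, log2 ratio for each gene: circles give CCCP over untreated from edgeR with bars of 1 standard error, and triangles give untreated replicate 2 over untreated replicate 1. The triangles lie further from 0 than the circles for 7 genes, Ddit4, Gdf15 and Vldlr being the exceptions. The share over all genes was not computed, and single libraries vary more than group means.

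The untreated libraries themselves differed in these genes. Untreated replicate 2 was above untreated replicate 1 for 9 of the 10, against 50.1% of all genes, with a median log2 ratio of 0.67 beside 0.0014 over all genes tested. Ddit4 was the exception, at -0.0058, and Cth had the widest gap, at 1.27. Untreated replicate 1 was the lowest of the 4 libraries for 6 of the 10 (Asns, Cth, Pck2, Sesn2, Eif4ebp1 and Stc2), against 31.7% of all genes. Between the CCCP libraries the median log2 ratio of replicate 2 over replicate 1 was 0.15, beside 0.013 over all genes tested. The gap between untreated libraries was wider than the gap between group means for 7 of the 10 genes. The share over all genes was not computed for that count. Single libraries vary more than group means, so it cannot be read as a trait of these genes. These counts were chosen after the values were seen. Marker lists of cell types also differed between these libraries. Endothelial markers ran the same way as the effectors, with replicate 2 above replicate 1 for 7 of 7 genes (median log2 ratio 0.39) and sums of 419.6 and 544 CPM in replicates 1 and 2. Replicate 2 was above replicate 1 for 0 of 11 hepatic, 0 of 6 macrophage, 0 of 6 mesonephros and gonad, 1 of 6 mesenchymal and 1 of 7 skeletal muscle markers. Mesenchymal sums were 3993 and 2474 CPM. For erythroid, haematopoietic and neural markers the counts were 2 of 6, 3 of 7 and 3 of 6. What part any of them had in the gap was not tested.

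**Figure D3:**
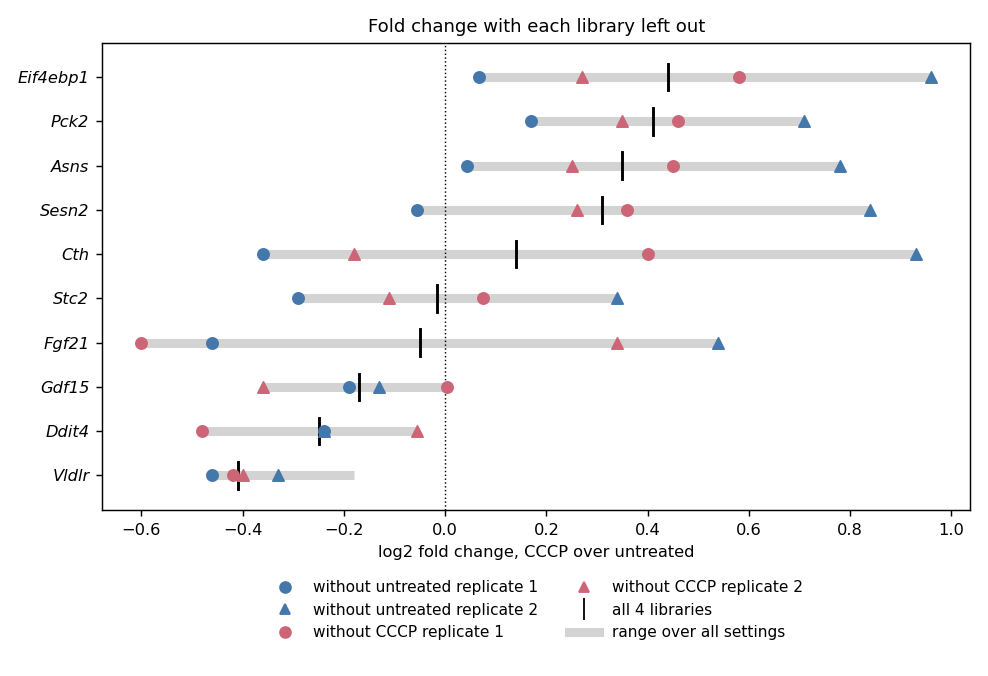
Horizontal axis, log2 fold change of each gene: symbols show the value with 1 library left out, the black tick all 4 libraries, and the grey bar the range over all settings. The blue symbols are furthest apart for Cth, from -0.36 without untreated replicate 1 to 0.93 without untreated replicate 2, and close together for Vldlr, Gdf15 and Ddit4.

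Which untreated library was used set the size of the group difference for Asns, Pck2, Sesn2, Eif4ebp1 and Cth. Without untreated replicate 2 the log2 fold changes were 0.78 for Asns, 0.71 for Pck2, 0.84 for Sesn2, 0.96 for Eif4ebp1 and 0.93 for Cth, with edgeR adjusted p-values from 0.0630 to 0.108. Without untreated replicate 1 they were 0.044, 0.17, -0.055, 0.067 and -0.36. Each of those fits leaves 1 untreated library, which is assumed to vary like the CCCP pair. Pck2, Asns and Eif4ebp1 kept a positive value whichever library was left out, and Sesn2 and Cth did not. Fgf21 and Stc2 turned too, from 0.54 and 0.34 without untreated replicate 2 to -0.46 and -0.29 without untreated replicate 1. Ddit4 was at -0.24 without either, and Gdf15 at -0.13 and -0.19.

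Levels can be compared between genes only per length, as CPM per kilobase of exon. In the untreated libraries Ddit4 led with 129.7 ± 0.371, apart from Asns (72.8 ± 25.3) and Eif4ebp1 (68.4 ± 28.7), which overlapped each other (SD, n = 2). Sesn2 (37.97 ± 15.9), Pck2 (29.5 ± 7.57), Cth (24.01 ± 14.1) and Stc2 (22.7 ± 6.76) followed, each overlapping its neighbour. Vldlr at 11.99 ± 0.662 was apart from those above and below. Fgf21 (1.42 ± 0.667) and Gdf15 (1.22 ± 0.0337) were lowest and overlapped. The order of means was the same in CCCP, where Ddit4 (109 ± 22.5), Asns (92.9 ± 8.99) and Eif4ebp1 (92.5 ± 13.99) formed an overlapping top group.

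Other genes of the same response were read from lists of related genes. Atf4 itself had 237 and 292 CPM untreated and 327 and 326 CPM in CCCP, both CCCP libraries above both untreated ones. The difference of 0.31 on the log2 scale had an edgeR adjusted p of 0.383 and a standard error of 0.144. Of the 10 transcription factors and feedback genes, 0 passed in edgeR, 4 were higher at an unadjusted p under 0.05 (5.45% of all genes), and 1, Ddit3, passed higher in DESeq2 (0.297% of all genes). Both CCCP libraries were above both untreated ones for 7 of the 10 genes, against 24.0% of all genes. The list's median log2 fold change was 0.39, and 0.24 with the trend on exon length removed. The highest was Trib3, a pseudokinase that curbs the response, at 0.70 (38.3 and 56.5 against 72.0 and 82.2 CPM), and the lowest Cebpg, the partner of Atf4 at its site, at -0.19.

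The 3 lists that share the amino acid role of Asns had no gene past the test in edgeR, and 1, 2 and 2 genes higher at an unadjusted p under 0.05, against 5.45% of all genes. Medians were 0.25 for 9 serine, proline and one-carbon enzymes, 0.29 for 9 amino acid transporters and 0.21 for 12 cytosolic aminoacyl-tRNA synthetases. Log2 fold changes were above 0 for 9 of 9, 7 of 9 and 11 of 12 genes, where 49.2% of all genes were above 0. Their extremes were Pycr1 (0.50) and Mthfd1l (0.013), Slc6a9 (0.56) and Slc38a2 (-0.066), and Wars (0.46) and Eprs (-0.048). DESeq2, which called 0.297% of all genes higher, passed 2 of these genes, the glycine transporter Slc6a9 (adjusted p 0.0213) and Slc1a4 (0.0488). Untreated replicate 1 was the lowest library for 8 of 9, 8 of 9 and 12 of 12 of these genes, against 31.7% of all genes. Without it the 3 medians were 0.066, 0.048 and 0.0005, and that of the transcription factor and feedback list was 0.24. Without untreated replicate 2 they were 0.69, 0.54 and 0.44, and 0.55.

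**Figure D4:**
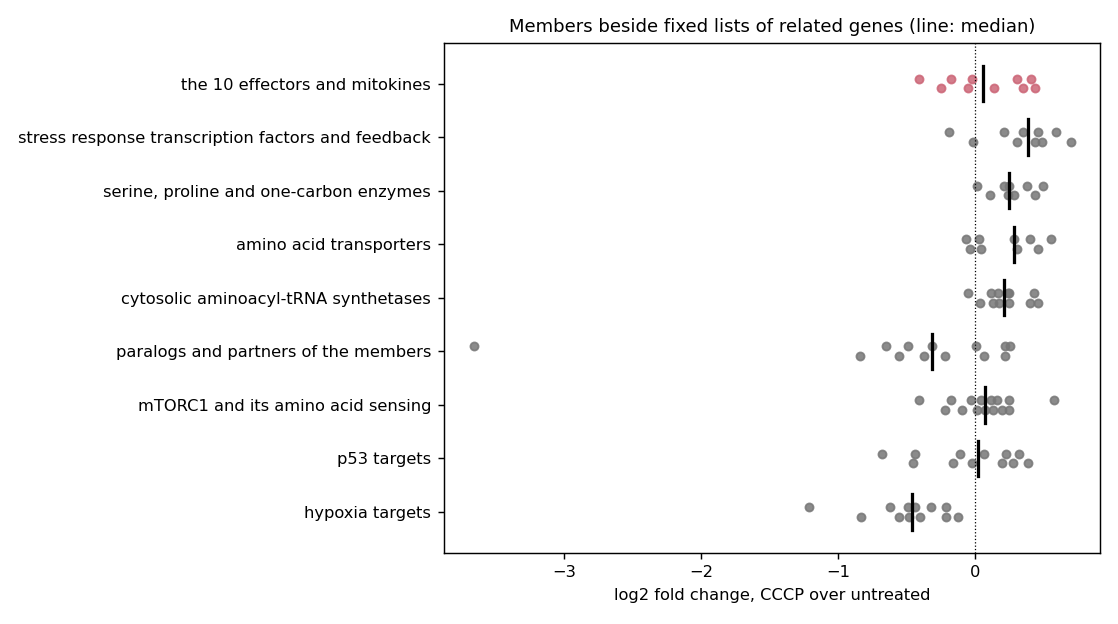
Horizontal axis, log2 fold change of every tested gene in the 10 effectors and mitokines (red) and in 8 lists of related genes (grey), with a line at each median. Medians lie between 0.21 and 0.39 for the 4 lists of the stress response, at 0.062 for the 10 genes and at -0.46 for hypoxia targets, and the point far to the left is Klb.

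Ddit4, Vldlr and Stc2 are also known to respond to hypoxia, so 12 other hypoxia targets were read. All 12 had log2 fold changes below 0, with a median of -0.46, and 8 had both CCCP libraries below both untreated ones, against 24.8% of all genes. None passed in edgeR, 7 were lower at an unadjusted p under 0.05 (9.16% of all genes), and 2, Vegfa and Kdm3a, passed lower in DESeq2 (2.70% of all genes). Vegfa, the growth factor of blood vessels, had 256 and 245 CPM untreated against 149 and 131 CPM in CCCP, a log2 fold change of -0.83 (edgeR adjusted p 0.144). Slc2a1, a glucose transporter, was nearest to 0, at -0.12. The list's median stayed between -0.51 and -0.32 in all the alternatives run. Vldlr and Ddit4, at -0.41 and -0.25, lay within the range of these 12 genes, and Stc2, at -0.017, lay above it. That range is wide, as 39.99% of all genes tested had a log2 fold change below that of Slc2a1. The part of hypoxia signalling in the values of Ddit4, Vldlr and Stc2 was not tested.

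Gdf15 and Sesn2 are also targets of p53. A list of 12 p53 targets had a median log2 fold change of 0.021, with 6 genes above 0 and 6 below and no gene past edgeR or DESeq2, although 2 were lower at an unadjusted p under 0.05 (9.16% of all genes). The sign of that median was not stable: it was -0.038 under total-count scaling, -0.0016 with the filter of 1 CPM, -0.063 without untreated replicate 1, -0.091 without CCCP replicate 2 and 0.21 without untreated replicate 2. Its extremes were Phlda3 at 0.39 and Eda2r at -0.68, both with overlapping groups.

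Paralogs and partners of the 10 genes were read where the files held them. Among 15 such genes, 13 passed the filter, 0 passed in edgeR, 2 were lower at an unadjusted p under 0.05 (9.16% of all genes), and 1, Klb, passed lower in DESeq2 (2.70% of all genes). The sestrins Sesn1 and Sesn3 had log2 fold changes of 0.065 and -0.31, beside 0.31 for Sesn2. The paralog of Ddit4, Ddit4l, was at -0.22. Eif4ebp2 and Eif4ebp3, the other eIF4E repressors, were both at 0.22 with groups apart, and Eif4e itself was at 0.0061. Per library Eif4ebp2 had 267 and 264 CPM untreated and 317 and 302 CPM in CCCP.

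Stc1, the paralog of Stc2 and a hypoxia-responsive gene, had a mean of 19.8 ± 3.33 CPM untreated against 12.6 ± 1.51 CPM in CCCP (SD, n = 2), with groups apart and a log2 fold change of -0.65 (edgeR adjusted p 0.269). Cbs, the enzyme before Cth in the route to cysteine, was at 4.91 and 3.53 against 1.73 and 3.005 CPM, or -0.84 on the log2 scale. The cytosolic counterpart of Pck2, Pck1, did not pass the filter, with counts of 4 and 2 untreated and 26 and 0 in CCCP. For Vldlr, the second reelin receptor Lrp8 was at -0.37 (standard error 0.192, edgeR adjusted p 0.417). Lrp8 had 80.7 and 55.9 CPM untreated and 55.9 and 49.7 CPM in CCCP, so that the groups all but touched. Reelin itself (Reln) at -0.55 and the adaptor Dab1 at -0.49 overlapped between the groups. Reln had 190.5 and 91.5 CPM untreated and 112 and 80.96 CPM in CCCP, so that untreated replicate 2 was below CCCP replicate 1. Exons of Lrp8, Reln and Dab1 are long too, at 11043, 11702 and 7930 bases.

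The receptors of the mitokines were unequal. Fgfr1 had 205 and 179.7 CPM untreated and 241 and 221 CPM in CCCP, a log2 fold change of 0.26. Klb, the co-receptor that makes cells respond to Fgf21 and a gene of hepatocytes and fat, had 206 and 124 counts untreated against 9 and 15 in CCCP. On the log2 scale this was -3.66 (standard error 0.490), with adjusted p-values of 0.144 in edgeR and 1.73e-07 in DESeq2. The hepatic markers, with a median of -4.77, were lower in the same libraries, and their part in the value of Klb was not tested. Of these 11 markers 0 passed in edgeR, and 6 passed lower in DESeq2 (2.70% of all genes). Their median was -3.84 without CCCP replicate 1 and -8.56 without CCCP replicate 2. Gfral, the receptor of Gdf15, had 0 counts in all 4 libraries. A limit of 3 counts is 0.06144 to 0.0803 CPM per library, which is too low where both reads of a pair are counted.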

How the data were processed

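Poly(A) RNA was sequenced in 4 libraries, grouped by sample title. The deposited values are raw counts per gene, counted by the authors in exons of the mm10 RefSeq annotation (featureCounts 2.0.3, per the file headers); no strand option was set although the library was directional, and reads of a pair were counted singly. HISAT2 is named in the submitters' processing notes, without options. The header of 1 untreated file differs from its title by a letter, so its sample was taken from the file record. The authors' files also give the other value used, the exon length per gene.

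edgeR 4.0.16 in R 4.3.3 was fitted to all 19837 genes kept by filterByExpr (minimum count 10, minimum total 15), with TMM factors of 0.966 to 1.04, the group as sole term, a two-sided quasi-likelihood test and Benjamini-Hochberg adjustment at 0.05. The standard error is the log2 fold change over the square root of F. The fit was tested on simulated data with less spread between libraries than here and no replicate effect. That test checks the working of the fit and not its error rate in these data. No 2 libraries of a group agreed within counting noise (chi-square per degree of freedom at least 37.5). Floors cover counting error only, and take counts as independent although reads of a pair were counted singly. Alternatives were DESeq2 1.42.0, other scalings and filters, a robust fit, trends on exon length or GC content removed by lowess offsets (span 0.3), the replicate block, and each library left out. The 10 genes and all lists were chosen with earlier results of these data known. Named besides the 10 were Atf4, the paralogs and partners, and the extremes of each stress response, mTORC1, p53 or hypoxia list with a mean of at least 5 CPM. The list of 15 mTORC1 genes had a median log2 fold change of 0.075 with 0 genes called, and Rragc (0.25) and Rps6kb1 (-0.41) as extremes. Further marker lists had medians of -0.40 (haematopoietic), -0.19 (endothelial), 0.16 (erythroid), 0.15 (macrophage), 0.26 (skeletal muscle), -0.033 (mesonephros and gonad), 0.22 (neural) and -0.10 (mesenchymal).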

Additional observations from a re-analysis of the deposited data

How the results depend on the processing

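The count of genes past the threshold was 0 with all libraries in edgeR and stayed 0 with other scalings, the filter of 1 CPM, the robust fit and either trend removed without a block. It was 1107 without a filter, 594 in DESeq2, and 1 to 34 with 1 library left out. With the replicate block it was 2118, and 1242 with the length trend and 775 with the GC trend removed as well, the last chosen after seeing the data. The cause was not tested. Libraries with the same number deviated together (correlation 0.36), but the labels do not say what is shared, and with 2 pairs this is no pairing. Under the replicate block 3 of the 10 genes passed, Pck2 (0.43, edgeR adjusted p 0.0394) and Eif4ebp1 (0.49, 0.0330) higher, where 3.80% of all genes passed, and Vldlr (-0.41, 0.0310) lower, where 6.88% did. Removing the length trend under the block left 1 past, Ddit4 (-0.41, 0.0453), and removing the GC trend left 0. The block also called genes in the related lists: higher, 4 of 10 transcription factor and feedback genes, 3 of 9 serine, proline and one-carbon enzymes, 3 of 9 amino acid transporters and 3 of 12 tRNA synthetases; lower, 6 of 12 hypoxia targets, 2 of 12 p53 targets, 3 of 13 paralogs and partners and 1 of 15 mTORC1 genes. Trib3 had an edgeR adjusted p of 0.00269 and Vegfa of 7.68e-04 there. The sign of Stc2 turned under the replicate block, to 0.012. Otherwise signs turned only with a library left out, where values ran from -0.055 to 0.84 for Sesn2, -0.36 to 0.93 for Cth, -0.60 to 0.54 for Fgf21, -0.29 to 0.34 for Stc2 and -0.36 to 0.0042 for Gdf15. The median of the 10 genes was -0.22 to 0.63 with 1 library left out. Gdf15 (83 to 112 counts) and Fgf21 (32 to 82 counts) had the lowest counts, with standard errors of 0.330 and 0.534, while Cth, with 1280 to 2311 counts, had 0.411. The part of depth in these errors was not tested.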
